A study of Rattus norvegicus with 6 samples.

Results

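The genes described here are mucins and the enzymes that build or sulfate glycans, 87 of the 13728 genes in the table. They were chosen by gene symbol, as the mucins numbered 2 and above and the Galnt, Gcnt, C1galt, Fut, Ggta, St3gal, St6gal, St8sia, B3gnt, B3gal, B4gal, Mgat, Chst, Hs and Ndst sulfotransferase, Ext, Extl, Xylt, Csgalnact, Chsy and Gal3st families and Ugcg, with at least 10 counts summed over the 6 libraries. Of 106 symbols that matched, 19 fell below that minimum, among them the gel-forming mucin Muc2 with 7 counts in all. The members were sorted into 13 roles by what each enzyme is known to do.

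The libraries came from 3 samples of rat endometrial epithelial organoids (rEEOs) and 3 samples of rat bone marrow mesenchymal stem cells (rBMSCs). The study set both against each other as material for repair of the injured endometrium. The rEEOs were grown in Matrigel with an expansion medium from glandular fragments of the uteri of female SD rats aged 5 weeks and used at passages 3 to 5. The rBMSCs were purchased cells that carry a red fluorescent protein (RFP) label, cultured as a monolayer in DMEM/F12 with serum, so cell type, culture format, medium and the RFP label cannot be told apart in any difference. Nothing in the sources used here states that samples of a group came from separate animals or cultures, and the p-values then measure only the spread between these samples.

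Mucins are long glycoproteins whose serine- and threonine-rich repeats carry dense O-linked sugars. Some are secreted and form gels, while others span the membrane and make up the glycocalyx that covers epithelial surfaces, including the lumen and glands of the uterus. O-glycosylation begins when a Galnt enzyme attaches N-acetylgalactosamine (GalNAc), after which core, extension, fucosyl and sialyl enzymes complete the chain. N-glycans are branched by Mgat enzymes, and proteoglycans carry heparan or chondroitin sulfate chains that Xylt, Ext, Csgalnact, Chsy and sulfotransferase genes make. Mesenchymal cells are known for secreting a proteoglycan-rich matrix.

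Total counts were between 10457958 and 15421501 per library. The 8 epithelial markers held, such as Epcam and Cdh1, summed to between 4619 and 5182 TPM, a level scaled for transcript length and depth, in the rEEOs libraries and to between 2.43 and 2.85 in rBMSCs, where 6 of the 8 had no count. The 9 mesenchymal markers, such as Col1a1 and Pdgfrb, summed to between 41220 and 43516 TPM in rBMSCs and to between 172 and 298 in rEEOs, with Pdgfrb and Thy1 at 0 in all rEEOs libraries. Of 8 blood and macrophage markers listed, 6 were in the table, Cd68 among them. These summed to between 32.8 and 134 TPM in rEEOs, where Laptm5 had no count, and at most 0.79 in rBMSCs. That sum was not split by gene, and whether such cells were present was not tested. Ciliated cell markers summed to between 13.1 and 19.5 TPM in rEEOs and at most 1.09 in rBMSCs. Replicate 1 of the rEEOs stood apart from replicates 2 and 3. The median SD of log2 CPM (counts scaled to depth) was 0.34 within rEEOs, 0.16 without replicate 1 and 0.09 within rBMSCs.

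Of the 87 members, 78 passed the filter of at least 10 counts in at least 3 libraries. The test was the quasi-likelihood test of edgeR, with p-values adjusted by Benjamini-Hochberg over all 10607 genes tested. A gene is called when its log2 fold change of rEEOs against rBMSCs exceeds 2 in size at an adjusted p below 0.05. In the rEEOs, 27 of the 78 tested members (34.6%) were called higher, against 16.3% of all genes tested. Lower calls numbered 20 (25.6%), against 13.3% of all genes. At an adjusted p below 0.05 with any fold, 33 members (42.3%) were higher and 34 (43.6%) were lower, against 33.3% and 30.2% of all genes, and 11 did not pass. Of the 78, 18 (23.1%) reached the minimum of 10 counts in rEEOs libraries only and 6 (7.69%) in rBMSCs libraries only, against 9.61% and 5.84% of all genes, and the direction of these was fixed by the filter. The median log2 fold change was -0.34 over the 78 members and 0.08 over all genes tested. In bulk RNA, fewer cells that express a gene and less RNA per cell cannot be told apart.

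The summed level of the members overlapped between the cell types, with different members making it up. They summed to 1788, 1618 and 1747 TPM in the rBMSCs libraries and to 2413, 1189 and 1286 in the rEEOs libraries. With 3 libraries against 3 an exact permutation test cannot give a p below 0.1, so sums are given as values without a test. Chondroitin and dermatan sulfate enzymes summed to 222 ± 14.2 TPM in rBMSCs and 21.4 ± 8.91 in rEEOs (mean ± SD, n = 3 each), and heparan sulfate enzymes to 417.5 ± 18.6 and 116 ± 48.9. Mucins ran the other way, with at most 0.04 TPM in any rBMSCs library and 213 ± 169 in rEEOs. Chain extension enzymes summed to 166 ± 7.31 TPM in rBMSCs and 346 ± 60.8 in rEEOs, and fucosylation enzymes to 55.4 ± 2.42 and 129 ± 49.4. The sums of these 5 roles did not overlap between the groups. Nor did those of sialylation and alpha-galactose (mean 166 TPM in rBMSCs and 260 in rEEOs), other carbohydrate sulfation (29.2 and 73.5), the proteoglycan linker (71.3 and 41.1) and O-mannose glycans (13.0 and 8.30). How often all genes lack overlap was not counted.

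**Figure D1:**
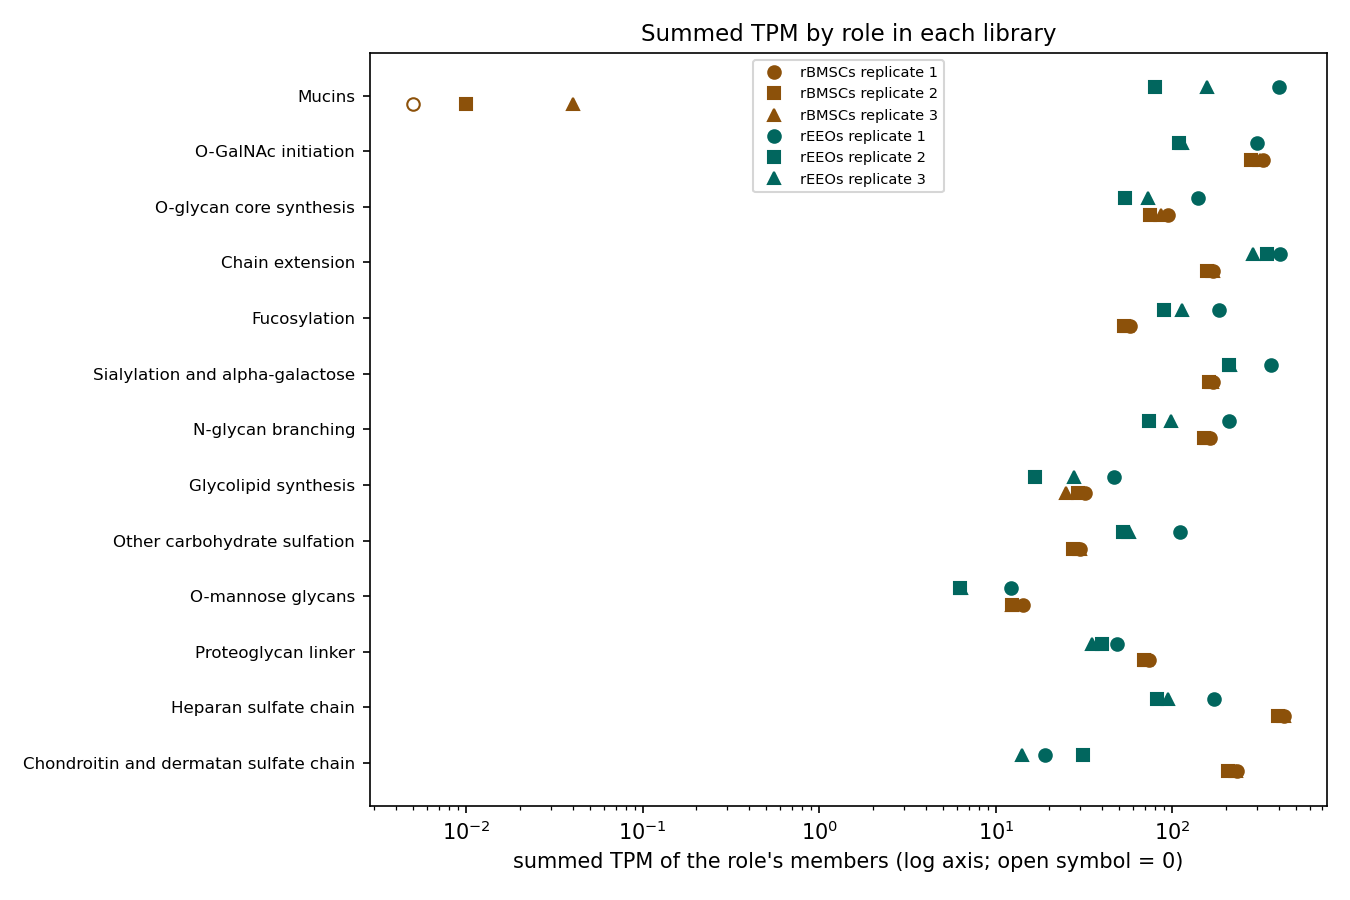
Summed TPM of the members of each role (x axis, log scale) in each of the 6 libraries, with rBMSCs in brown, rEEOs in green and the symbol giving the replicate. Mucins lie at 0.04 TPM or less in rBMSCs and between 80.0 and 403 in rEEOs, while the chondroitin and dermatan sulfate enzymes lie between 206 and 231 in rBMSCs and at 31.3 or less in rEEOs.

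The 150 bases before the gene start are shown for the called mucins, which had almost no counts in rBMSCs, and for the chondroitin and dermatan sulfate enzymes called lower, 7 of 8 tested, where a RefSeq promoter window exists. The sets were chosen after their values were seen, so that both can be read side by side. Sequences are from RefSeq on the GRCr8 build, which is not the Rnor_6.0 build of the deposited values, and are written on the gene's strand from 5′ to 3′. Capitals mark CG pairs. The windows of the mucins are these.
Muc4, chr11:81558315-81558464 (- strand): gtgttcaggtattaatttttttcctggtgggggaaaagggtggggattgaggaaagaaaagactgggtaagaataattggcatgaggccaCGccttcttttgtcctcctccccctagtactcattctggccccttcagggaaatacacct
Muc13, chr11:80485407-80485556 (- strand): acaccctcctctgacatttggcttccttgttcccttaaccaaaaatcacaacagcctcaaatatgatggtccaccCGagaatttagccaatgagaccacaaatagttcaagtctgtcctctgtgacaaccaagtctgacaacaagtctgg
Muc20, chr11:81492741-81492890 (+ strand): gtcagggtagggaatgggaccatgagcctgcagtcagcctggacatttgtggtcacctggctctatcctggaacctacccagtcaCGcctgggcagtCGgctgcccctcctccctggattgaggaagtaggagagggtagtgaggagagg
The windows of the chondroitin and dermatan sulfate enzymes called lower in rEEOs are these.
Chsy1, chr1:129099938-129100087 (+ strand): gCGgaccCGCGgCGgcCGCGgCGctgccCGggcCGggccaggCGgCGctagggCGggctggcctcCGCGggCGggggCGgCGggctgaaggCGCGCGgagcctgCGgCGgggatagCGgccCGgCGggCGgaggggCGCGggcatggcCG
Chst12, chr12:19226199-19226348 (- strand): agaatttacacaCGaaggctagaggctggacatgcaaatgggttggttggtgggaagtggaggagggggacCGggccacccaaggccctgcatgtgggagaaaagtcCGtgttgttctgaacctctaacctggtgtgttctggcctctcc
Chst11, chr7:22630442-22630591 (- strand): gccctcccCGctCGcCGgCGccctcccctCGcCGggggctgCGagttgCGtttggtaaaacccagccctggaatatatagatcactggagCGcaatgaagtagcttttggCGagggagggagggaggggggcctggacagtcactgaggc
Chst3, chr20:28694527-28694676 (- strand): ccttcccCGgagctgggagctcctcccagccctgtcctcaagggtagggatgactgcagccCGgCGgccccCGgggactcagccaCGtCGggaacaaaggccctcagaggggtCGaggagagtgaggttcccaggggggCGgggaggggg
Chst15, chr1:196491184-196491333 (- strand): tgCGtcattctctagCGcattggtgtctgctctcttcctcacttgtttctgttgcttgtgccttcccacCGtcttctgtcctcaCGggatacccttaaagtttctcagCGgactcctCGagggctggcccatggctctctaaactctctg

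Over the 250 bases before the start, the windows held 2 CG pairs for Muc4, 3 for Muc13 and 2 for Muc20. Those of the chondroitin set held 48 for Chsy1, 27 for Chst11, 12 for Chst3, 8 for Chst15 and 3 for Chst12. Muc3, which was not tested, had 7, and Chst13, the enzyme of the chondroitin set called higher, had 10. Of the 87 members, 67 had a window. The median was 10 CG pairs for the 21 members with a window that were called higher, 16 for the 14 called lower, 18 for the 25 tested and not called, and 6 for all 27457 promoters in the table. At most 5 CG pairs were found in 9 of the 21 higher members (42.9%), in 1 of the 14 lower members (7.14%), in 4 of the 25 not called (16.0%) and in 48.3% of all promoters. The motif GGGCGG, read on both strands, was in 10 of the 21 higher members (47.6%), 11 of the 14 lower members (78.6%) and 32.4% of all promoters. TATAAA, also on both strands, was in 1 of the 21 higher members, St6gal1, in none of the 14 lower or the 25 not called, and in 13.1% of all promoters. These matches describe the letters only and were not tested. In the RefSeq annotation Muc20 and Muc4 are next to each other among protein-coding genes of chromosome 11, where Muc13 lies as well.

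**Figure D2:**
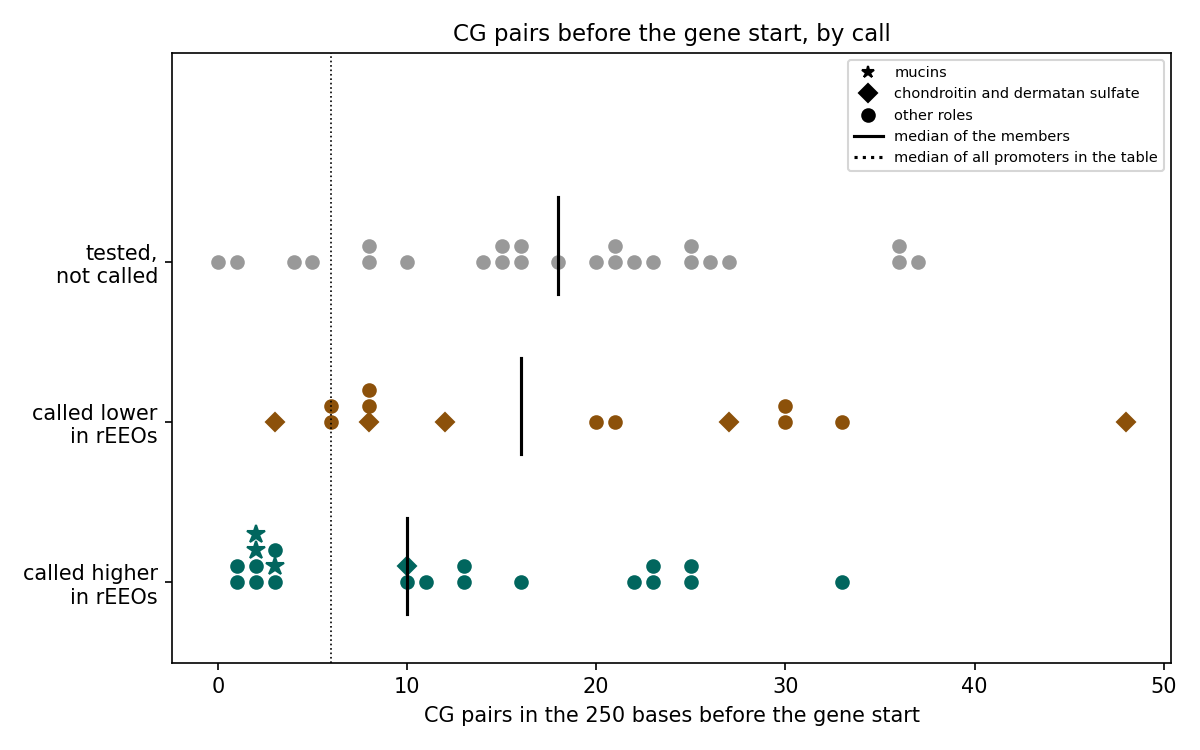
CG pairs in the 250 bases before the gene start (x axis) for members called higher, called lower or not called, one symbol per gene, with stars for mucins and diamonds for chondroitin and dermatan sulfate enzymes. The 3 tested mucins with a window lie at 2 or 3 pairs, and the solid bars mark medians of 10, 16 and 18, beside 6 for all promoters (dotted line).

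Mucin counts were found almost wholly in rEEOs. The 5 tested mucins had no more than 1 count each over the rBMSCs libraries and passed the filter through the rEEOs libraries alone, so that all 5 are higher is no support for a direction. Muc4, a membrane mucin of the uterine and other epithelia, was the most abundant of these at 348, 64.1 and 139 TPM in rEEOs replicates 1 to 3, with 29415, 5237 and 11417 counts. In rBMSCs it had 1 count in replicate 2 and none in the others. The ratio of depth-scaled counts was 45964, with a counting interval (95%) from 8249 to 1815510 (edgeR adjusted p = 4.8e-05). Without rEEOs replicate 1 the ratio was 28306, and without rBMSCs replicate 2, which held the 1 count, Muc4 was at least 4655-fold higher. Muc13, also a membrane mucin, stood at 24.8, 14.3 and 5.77 TPM in rEEOs and had 1 count in rBMSCs, a ratio of 1417 with an interval from 254 to 55998 (adjusted p = 0.000139), and was at least 154-fold higher without rBMSCs replicate 3, which held that count. Both genes were high in every rEEOs library and the groups did not overlap. The intervals cover counting error only, and PCR copies are not independent molecules.

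Muc5b, a gel-forming mucin, had 2802, 50 and 41 counts in rEEOs and none in rBMSCs. Its TPM of 17.3, 0.31 and 0.26 show that replicate 1 held nearly all of it. With 3 counts in each rBMSCs library as the floor, it was at least 262-fold higher in rEEOs (adjusted p = 0.037), and at least 17.2-fold higher without rEEOs replicate 1. The adjusted p was between 0.066 and 0.072 when any one rBMSCs library was left out and 0.064 in a test against a fold of 2. Muc20 (9.82, 0.94 and 5.49 TPM) was at least 26.6-fold and Muc15 (1.42, 0.27 and 1.71 TPM) at least 12.6-fold higher, both membrane mucins without a count in rBMSCs (adjusted p = 0.00682 and 0.0041). Muc3 had 95, 1 and 196 counts in rEEOs and none in rBMSCs, and was not tested because only 2 libraries reached 10 counts. The order of the rEEOs libraries differed by gene, since replicate 1 was highest for Muc4, Muc13, Muc20 and Muc5b and replicate 3 for Muc15 and Muc3.

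**Figure D3:**
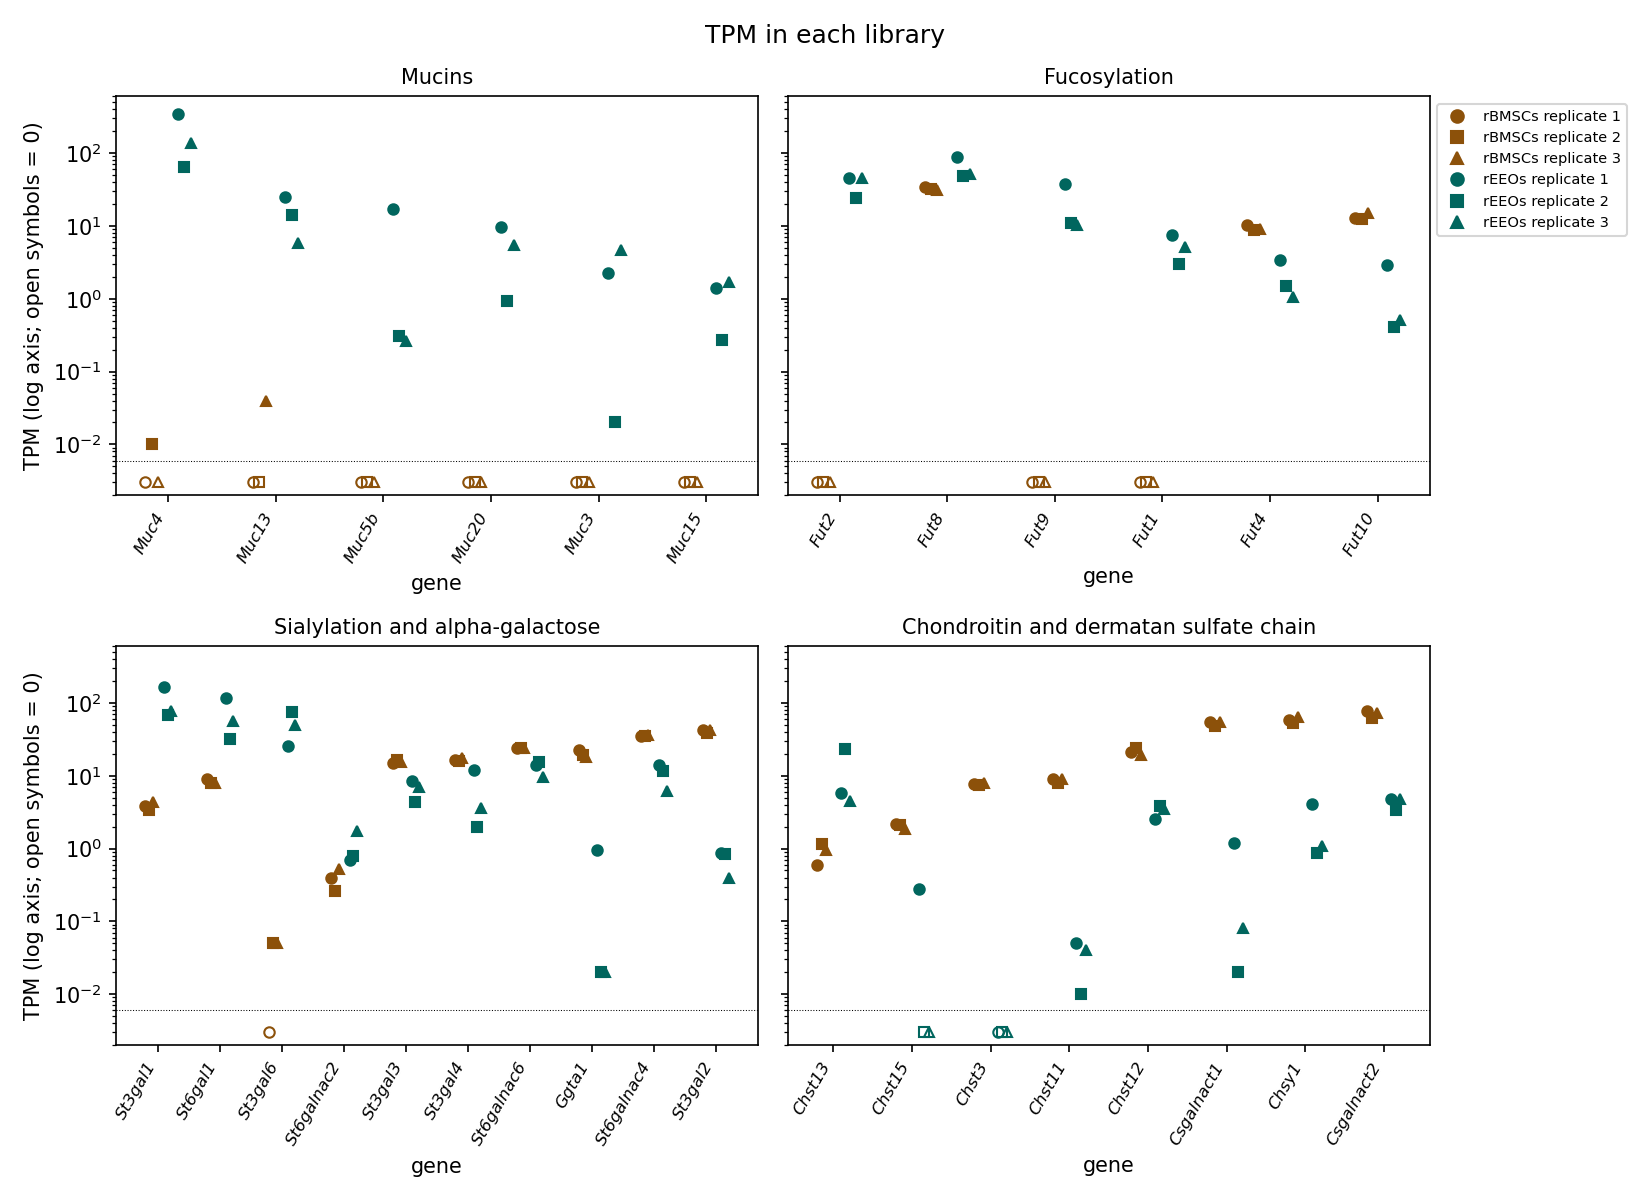
TPM of every member of 4 roles in each library (y axis, log scale), with rBMSCs in brown, rEEOs in green, the symbol giving the replicate and open symbols below the dotted line marking 0. Muc4 reaches 64.1 to 348 TPM in rEEOs, Fut1, Fut2 and Fut9 are at 0 in all rBMSCs libraries, and Chst3 is at 0 in all rEEOs libraries.

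Among members with a mean of at least 1 TPM in rEEOs, replicate 1 was the highest rEEOs library for 42 of 66 (63.6%), against 42.7% of 9348 genes. The median log2 difference of replicate 1 from the mean of the others was 0.52 for these members and -0.002 for all genes. Across 10590 genes, which are not independent replicates, the difference of replicate 1 was correlated with relative transcript length (Pearson r = 0.31). The part of transcript length in the members' levels was not tested beyond the alternative without a length trend.

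Members of the family that starts O-GalNAc chains lay on both sides. Of 8 tested, 2 (25%) were called higher and 1 (12.5%) lower, beside 16.3% and 13.3% of all genes tested. A further 2 were lower with a smaller fold. Galnt3 was at 35.2, 22.0 and 14.3 TPM in rEEOs and at 0.34, 0.29 and 0.59 in rBMSCs, with a log2 fold change of 6.13 ± 0.39 (SE, adjusted p = 4.05e-05). Galnt12 was at 63.4, 24.9 and 30.9 TPM in rEEOs and between 4.53 and 4.86 in rBMSCs (log2 fold change 3.27 ± 0.25, adjusted p = 8.23e-05). For both, every rEEOs library lay above every rBMSCs library.

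Galnt16 showed the opposite pattern, with 1037, 1032 and 1000 counts in rBMSCs (26.9, 25.3 and 27.2 TPM) and no count in any rEEOs library. It was at least 333-fold lower in rEEOs (adjusted p = 2.18e-05). Galnt16 passed the filter through rBMSCs libraries alone, so its direction was fixed by it. Galnt1, the most abundant of the family in rBMSCs at 136 ± 12.3 TPM (SD, n = 3), was at 90.8, 27.0 and 26.2 TPM in rEEOs (log2 fold change -1.18 ± 0.23, adjusted p = 0.00448). Galnt10 was also lower (-1.97 ± 0.54, adjusted p = 0.0186), and reached 0.051 without rBMSCs replicate 1 and 0.055 without rEEOs replicate 3. Without rEEOs replicate 1 its log2 fold change was -2.88. Galnt7, named after its values were seen, had 345, 5 and 16 counts in rEEOs and between 693 and 776 in rBMSCs. It did not pass the test (-2.81 ± 1.19, adjusted p = 0.0773), but without rEEOs replicate 1 the log2 fold change was -5.89 with an adjusted p of 1.46e-05.

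Within the 11 Galnt members, Galnt12 and Galnt3 made up 1.52% and 0.13% of the summed TPM in rBMSCs and 23.7 ± 3.25% and 14.8 ± 4.57% in rEEOs (SD, n = 3). Galnt1 made up 44.4 ± 0.81% in rBMSCs and 26.0 ± 3.73% in rEEOs, and Galnt16 8.66 ± 0.37% and 0%. Galnt11 and Galnt2 did not pass the test (log2 fold change 0.13 ± 0.18 and -0.16 ± 0.34). Without rEEOs replicate 1 both passed, Galnt11 at 0.29 (adjusted p = 0.0371) and Galnt2 at -0.64 (adjusted p = 0.00286).

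The next enzyme, C1galt1, adds galactose to the first GalNAc. It was at 72.1, 16.6 and 26.3 TPM in rEEOs and at 70.9, 50.6 and 64.0 in rBMSCs, and the groups overlapped (log2 fold change -0.38 ± 0.30, adjusted p = 0.302). Without rEEOs replicate 1 it was lower (-0.70, adjusted p = 0.0216), and scaled by library size alone its sign turned. C1galt1c1, known as Cosmc, the chaperone that C1galt1 needs, was higher in rEEOs at 47.0, 35.2 and 42.0 TPM against 19.3, 20.1 and 16.9 (1.39 ± 0.16, adjusted p = 0.0005). Gcnt1, which branches this core, was at 19.0, 1.70 and 4.16 TPM against 0.26 to 0.36 (4.71 ± 0.84, adjusted p = 0.00313), and without rEEOs replicate 1 its log2 fold change was 3.58. Gcnt6 was lower, at 0.33 to 0.60 TPM in rEEOs and 3.67 to 4.74 in rBMSCs (-2.90 ± 0.28, adjusted p = 0.00022).

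Chain extension enzymes add the galactose, N-acetylglucosamine or GalNAc units that lengthen glycans. B3galt4 and B3galnt1, which act on glycolipids, were sorted into this role. Of its mean summed TPM of 346 in rEEOs and 166 in rBMSCs, B3galnt1 held 102 and 35.2. Of 11 tested, 4 (36.4%) were called higher and 1 (9.09%) lower, beside 16.3% and 13.3% of all genes tested. At any fold 7 (63.6%) were higher and 2 (18.2%) lower, beside 33.3% and 30.2%. B4galnt4 and B3gnt7, both called higher, reached 10 counts in rEEOs libraries only, so their direction was fixed by the filter. B4galnt4, which attaches GalNAc to N-acetylglucosamine ends, had 931, 1473 and 545 counts in rEEOs and none in rBMSCs, at least 341-fold higher (adjusted p = 0.000656) and at least 225-fold without rEEOs replicate 2. B4galt3, a galactosyltransferase, was even among the rEEOs libraries at 129, 131 and 119 TPM, against 16.2, 14.2 and 13.7 in rBMSCs (log2 fold change 3.40 ± 0.19, adjusted p = 2.64e-05). Its relative B4galt1 did not pass the test (0.05 ± 0.18, adjusted p = 0.829). Of the summed TPM of B4galt1, B4galt3 and B4galt4, B4galt1 held 65.0 ± 3.04% in rBMSCs and B4galt3 71.3 ± 10.9% in rEEOs.

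The B3gnt members, which add N-acetylglucosamine, also lay on both sides. B3gnt7 was at 20.2, 7.77 and 16.5 TPM in rEEOs and 0.13 to 0.25 in rBMSCs (6.34 ± 0.43, adjusted p = 4.96e-05). B3gnt9 was at 0.44, 0.08 and 0.12 TPM in rEEOs and 31.1, 32.2 and 31.9 in rBMSCs (-7.01 ± 0.44, adjusted p = 4.01e-05), with -7.82 without rEEOs replicate 1. B3gnt9 and B3gnt7 held 45.8 ± 2.93% and 0.30 ± 0.10% of the family's summed TPM in rBMSCs, and 0.67 ± 0.45% and 50.6 ± 8.63% in rEEOs. B3galt4, known for ganglioside synthesis, was higher at 6.90 to 14.1 TPM against 0.74 to 1.11 (3.47 ± 0.31, adjusted p = 0.000148). B3galnt1, known for making globoside, was higher with a smaller fold (116, 122 and 68.7 TPM against 34.4 to 36.3, 1.82 ± 0.25, adjusted p = 0.000966), and passed the fold threshold at 2.01 without rEEOs replicate 3.

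**Figure D4:**
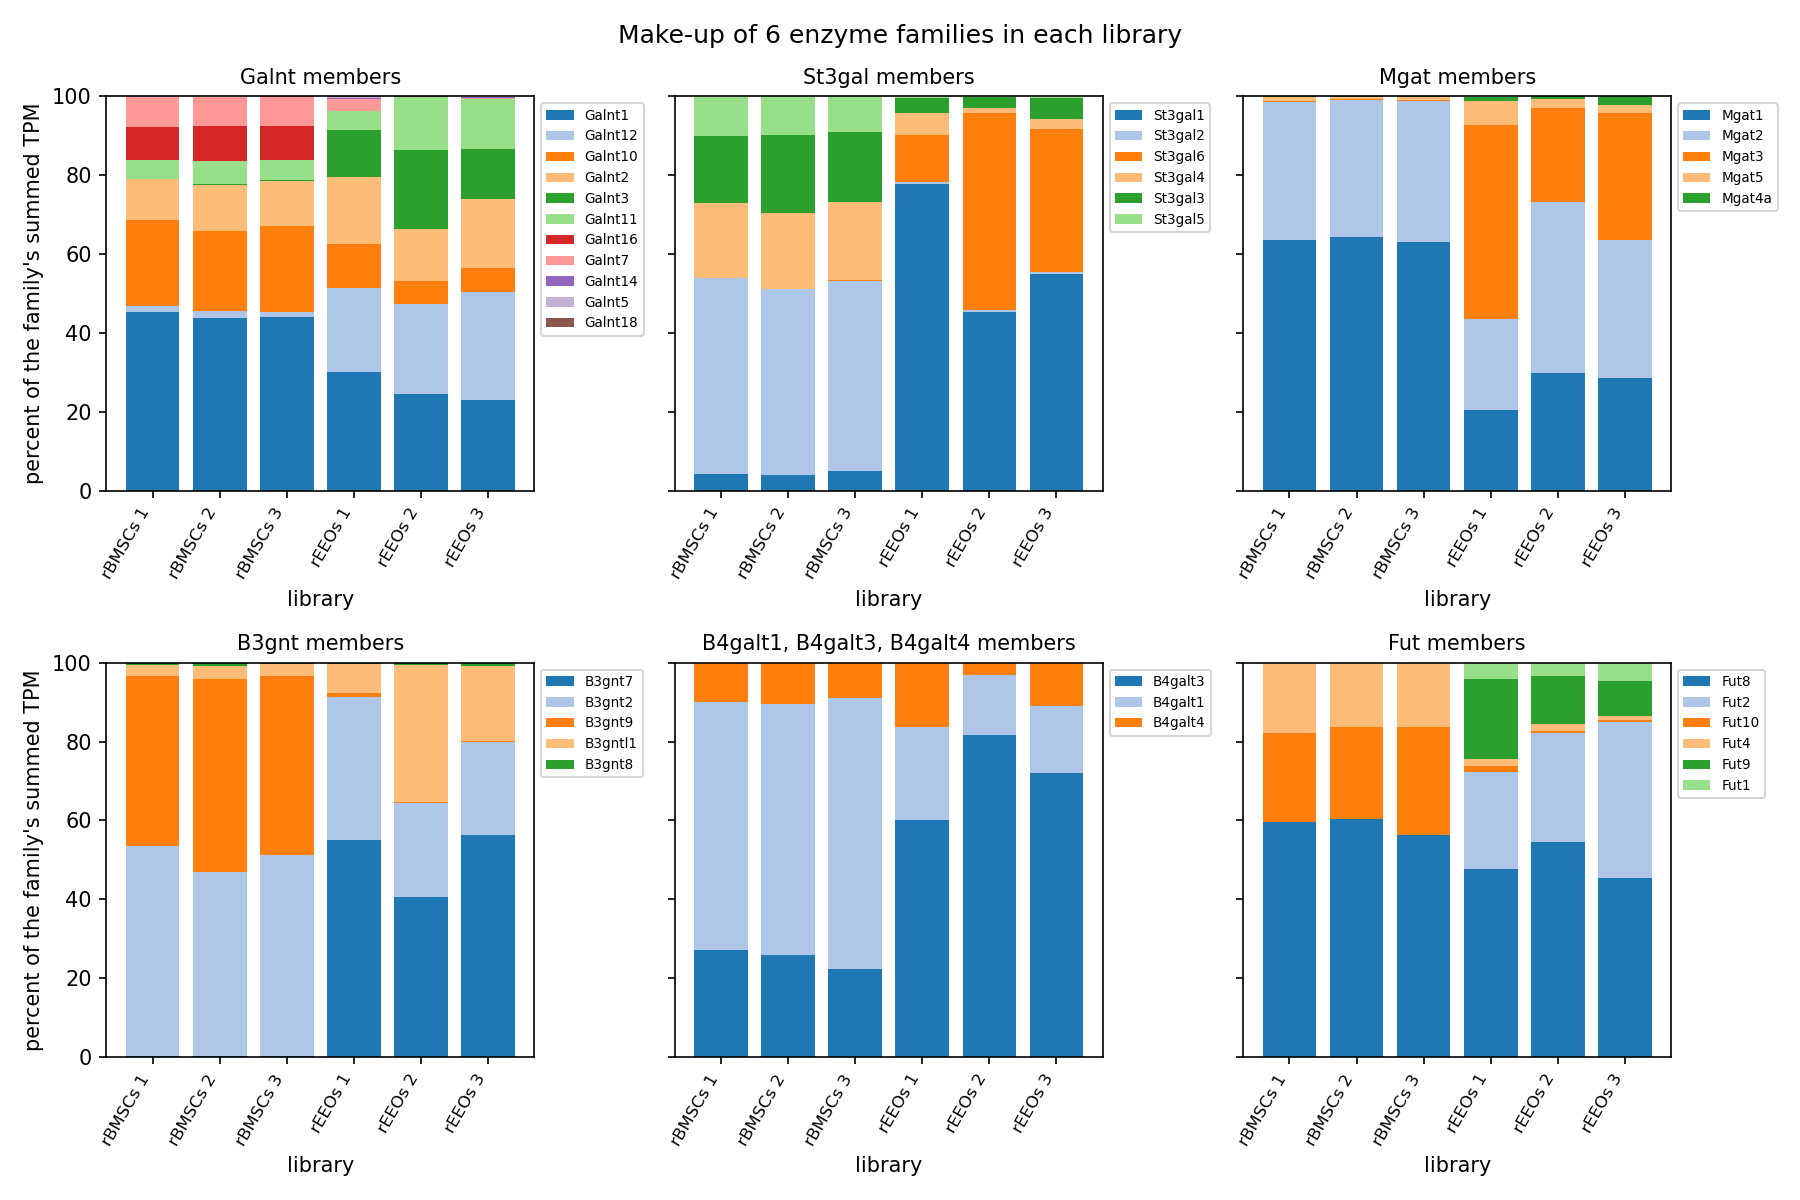
Percent of the summed TPM of a family (y axis) held by each of its members in each library, stacked, for 6 families. Galnt12, St3gal1, Mgat3, B3gnt7, B4galt3 and Fut2 hold larger shares in all 3 rEEOs libraries than in any rBMSCs library.

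Fucosyltransferases cap or decorate chains with fucose. Of 6 members, 3 (50%) were called higher and 2 (33.3%) lower, beside 16.3% and 13.3% of all genes tested, and Fut8 was higher with a smaller fold. The 3 called higher had no count in any rBMSCs library. They passed the filter through rEEOs libraries alone, so their direction was fixed by it. Fut2, the secretor enzyme that makes the H antigen on epithelia, was at 45.0, 24.6 and 45.1 TPM in rEEOs, at least 433-fold higher (adjusted p = 9.83e-05). Fut1, its relative, was at 7.62, 3.04 and 5.15 TPM, at least 50.1-fold higher (adjusted p = 0.000363). Fut9, known for making the Lewis X epitope, was at 37.3, 10.9 and 10.2 TPM, at least 141-fold higher (adjusted p = 0.000839) and at least 94.0-fold without rEEOs replicate 1.

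Fut4, also known for making Lewis X, was lower in rEEOs, at 3.43, 1.48 and 1.07 TPM against 10.4, 8.68 and 8.97 (log2 fold change -2.06 ± 0.32, adjusted p = 0.00182). It lay close to the fold threshold and fell short of it without rBMSCs replicate 1 (-1.995), rEEOs replicate 2 (-1.96) or rEEOs replicate 3 (-1.82). Lewis X is what the antibody SSEA-1, one of the study's stains, reads, and its level on cells was not measured in these data. The 2 genes thus lay on opposite sides, with Fut9 absent from the rBMSCs counts and Fut4 present in all 6 libraries. Fut10 was lower at 2.94, 0.41 and 0.51 TPM against 12.3 to 15.2 (-3.34 ± 0.62, adjusted p = 0.00374), and at -4.48 without rEEOs replicate 1. Fut8, which adds the core fucose of N-glycans, was at 88.0, 48.7 and 51.4 TPM against 31.2 to 34.5 (1.19 ± 0.14, adjusted p = 0.000594) and held the largest share of the Fut members in both cell types, 58.8 ± 2.11% and 49.3 ± 4.85%.

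Sialyltransferases end chains with sialic acid. With Ggta1, 10 were tested, of which 3 (30%) were called higher and 2 (20%) lower, beside 16.3% and 13.3% of all genes tested. At any fold 4 (40%) were higher and 6 (60%) lower, beside 33.3% and 30.2%. Among the higher, St3gal6 and St6galnac2 reached 10 counts in rEEOs libraries only, so their direction was fixed by the filter. St3gal1, which sialylates the galactose of O-glycan cores, was at 168, 67.6 and 76.3 TPM in rEEOs and 3.82, 3.38 and 4.40 in rBMSCs (log2 fold change 5.03 ± 0.23, adjusted p = 1.39e-05). St3gal2, which acts on the same kind of end and on gangliosides, was at 0.86, 0.83 and 0.40 TPM against 43.1, 39.2 and 42.1 (-5.96 ± 0.30, adjusted p = 1.83e-05). The groups did not overlap for either gene. St3gal6, which sialylates N-acetyllactosamine ends, was highest in rEEOs replicate 2 (25.6, 74.3 and 50.4 TPM) and had 2 counts in rBMSCs, a ratio of 1889.7 with an interval from 523 to 15609 (adjusted p = 0.000125).

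In shares of the summed St3gal TPM, St3gal2 went from 48.3 ± 1.17% in rBMSCs to 0.41 ± 0.13% in rEEOs, St3gal1 from 4.50 ± 0.50% to 59.4 ± 16.7% and St3gal6 from 0.04% to 32.7 ± 19.3%. St6gal1, which sialylates N-glycans, was at 115, 31.5 and 56.3 TPM in rEEOs against 7.93 to 9.14 (3.12 ± 0.37, adjusted p = 0.00055). Ggta1, the enzyme of the alpha-gal epitope, had 39, 1 and 1 counts in rEEOs and between 602 and 683 in rBMSCs (-5.69 ± 0.97, adjusted p = 0.00252), so its rEEOs signal lay almost wholly in replicate 1. Without that library 2 counts were left, and Ggta1 was lower by a ratio of 568 with an interval from 157 to 4692.

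Among N-glycan branching enzymes, Mgat1 opens the route to hybrid and complex chains, Mgat2 follows it, Mgat3 adds a bisecting branch and Mgat4a and Mgat5 add further branches. Mgat1 was lower in rEEOs, at 42.4, 22.0 and 28.2 TPM against 97.5 to 104 (-1.62 ± 0.15, adjusted p = 0.000187). Mgat3 was higher, at 103, 17.4 and 31.7 TPM against 0.71, 0.41 and 0.41 (6.87 ± 0.67, adjusted p = 0.000232), with a log2 fold change of 6.16 without rEEOs replicate 1. Its share of the Mgat members was 0.32 ± 0.10% in rBMSCs and 35.0 ± 13.1% in rEEOs. Mgat4a was higher at a low level (2.29, 0.46 and 2.17 TPM against 0.01 to 0.10, 5.33 ± 0.86, adjusted p = 0.00201), and without rBMSCs replicate 3 it had 3 counts in rBMSCs and was higher by a ratio of 97.6 (interval from 33.2 to 475). Mgat5 rested on rEEOs replicate 1 (12.8, 1.77 and 1.87 TPM against 0.98 to 1.77, 2.11 ± 0.73, adjusted p = 0.0414), since without it the log2 fold change was 0.90, and the adjusted p was between 0.078 and 0.124 when any one rBMSCs library was left out. Mgat2 was lower by little (-0.31 ± 0.10, adjusted p = 0.0393). Its adjusted p was between 0.0103 and 0.152 when any one library was left out, and its sign turned when libraries were scaled by their size alone.

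In glycolipid synthesis, B4galt5, which makes lactosylceramide, did not pass the test (0.43 ± 0.36, adjusted p = 0.326), but did without rEEOs replicate 2 (0.78, adjusted p = 0.016). St3gal5, which sialylates it to the first ganglioside, was lower in rEEOs, with 17, 0 and 17 counts against 168 to 195 (-4.05 ± 0.82, adjusted p = 0.00522). B4galnt1, which builds complex gangliosides, was higher at 5.26, 5.11 and 2.30 TPM against 0.11 to 0.34 (4.44 ± 0.58, adjusted p = 0.000826). Gal3st1, the sulfatide enzyme, had 39, 30 and 20 counts in rEEOs and none in rBMSCs, at least 9.82-fold higher (adjusted p = 0.000902). B3galnt2, an enzyme of O-mannose glycans, did not pass (-0.49 ± 0.19, adjusted p = 0.0569), but did without rEEOs replicate 1 (-0.66, adjusted p = 0.00176).

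Among sulfotransferases of other sugars, 2 of 4 tested (50%) were called higher and 2 (50%) lower, beside 16.3% and 13.3% of all genes tested. Chst5 and Chst9 passed the filter through rEEOs libraries alone, and Gal3st4 through rBMSCs libraries alone. The direction of these genes was fixed by the filter, so the even split is no support for a balance. Chst5, which sulfates N-acetylglucosamine, reached 2055, 965 and 891 counts in the 3 organoid libraries against 1, 0 and 1 in the rBMSCs libraries, a ratio of 1951 with an interval from 539.7 to 16116 (adjusted p = 1.47e-05). Chst9, which sulfates terminal GalNAc, was at 21.9, 10.7 and 17.4 TPM in rEEOs and without a count in rBMSCs, at least 184-fold higher (adjusted p = 9.48e-05). Chst2, with the same target as Chst5, was lower, at 4.25, 0.30 and 0.96 TPM against 25.2 to 27.9 (-3.79 ± 0.74, adjusted p = 0.00464), and at -4.99 without rEEOs replicate 1. Gal3st4, which sulfates galactose and was without a count in rEEOs, had 52, 46 and 42 in the rBMSCs libraries, at least 15.2-fold lower (adjusted p = 0.000386).

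For proteoglycans, the enzymes of the linker that joins a chain to its core protein had no call past the fold threshold. Xylt2, which attaches the first xylose, was lower with a small fold (-0.82 ± 0.14, adjusted p = 0.00245), and B4galt7 (-0.41 ± 0.20), B3galt6 (-0.60 ± 0.27) and Xylt1 (-0.93 ± 0.70) did not pass. Xylt1, with 312, 37 and 43 counts in rEEOs, was at -2.25 (adjusted p = 0.000315) without rEEOs replicate 1, and B3galt6 then passed at -0.81 (adjusted p = 0.011). B4galt7 passed without rEEOs replicate 2 (-0.56, adjusted p = 0.0295), and at -0.62 (adjusted p = 0.00918) with the trend on transcript length removed. It also passed with limma on log2 TPM.

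The enzymes past the linker were lower in rEEOs in nearly every case. Of 8 tested chondroitin and dermatan sulfate enzymes, 7 (87.5%) were called lower and 1 (12.5%) higher, beside 13.3% and 16.3% of all genes tested. For 3 of the 7 lower calls, named below, the direction was fixed by the filter. Csgalnact1, which starts the chondroitin chain, was at 1.21, 0.02 and 0.08 TPM in rEEOs and 54.1, 47.5 and 54.0 in rBMSCs (log2 fold change -6.81 ± 0.95, adjusted p = 0.0011), and rEEOs replicate 1 held 46 of its 49 rEEOs counts. With the 3 counts left without that library, it was lower by a ratio of 984 (interval from 336 to 4772). Csgalnact2, which has the same activity, was at 4.86, 3.40 and 4.86 TPM against 77.6, 61.6 and 73.1 (-3.71 ± 0.18, adjusted p = 1.73e-05). Chsy1, a polymerase of the chain, was at 4.13, 0.86 and 1.07 TPM against 58.9, 53.7 and 63.4 (-4.74 ± 0.50, adjusted p = 0.000328), with -5.49 without rEEOs replicate 1. No rEEOs library came up to any rBMSCs library for these 3 genes.

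Most sulfotransferases of the chain were lower as well. Chst11, with 418, 375 and 408 counts in rBMSCs, was down to 2, 1 and 3 in the rEEOs libraries (-7.56 ± 0.32, adjusted p = 1.13e-05). Chst3 had none in rEEOs and 449, 471 and 451 in rBMSCs, at least 149-fold lower (adjusted p = 4.01e-05). Chst12 (-2.37 ± 0.30) and Chst15 (-5.45 ± 0.88) were also called lower, and all 7 of the rEEOs counts of Chst15 were in replicate 1. Without that library Chst15 was at least 29.8-fold lower. Of the 8 enzymes, 3 (Chst3, Chst11 and Chst15) reached the minimum of 10 counts in rBMSCs libraries only, so their direction was fixed by the filter. Chst13, which sulfates the same chondroitin position as Chst11, was the exception, at 5.83, 23.2 and 4.47 TPM in rEEOs against 0.59, 1.15 and 0.95 (4.22 ± 0.85, adjusted p = 0.0051), and at 2.96 without rEEOs replicate 2. Of the role's summed TPM, Chst13 held 0.41 ± 0.15% in rBMSCs and 45.6 ± 24.7% in rEEOs.

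Heparan sulfate enzymes were lower with smaller folds. Of 8 tested, 3 (37.5%) were called lower, beside 13.3% of all genes tested, but 7 (87.5%) were lower at any fold, beside 30.2%. Hs3st3b1 reached 10 counts in rBMSCs libraries only and Hs3st1 in rEEOs libraries only, so their direction was fixed by the filter. Ext2 and Ext1 together polymerise the chain. Ext2 was at 77.5, 53.1 and 50.1 TPM in rEEOs against 190 to 198 (-1.47 ± 0.12, adjusted p = 0.000129), and Ext1 at 5.17, 2.05 and 2.08 against 35.4 to 38.9 (-3.41 ± 0.27, adjusted p = 9.85e-05). Hs6st1, a heparan sulfotransferase, was at 30.9, 9.51 and 16.5 TPM against 91.9 to 103 (-2.19 ± 0.30, adjusted p = 0.000957), short of the fold threshold at -1.90 without rEEOs replicate 2. Hs3st3b1, with 3 counts in rEEOs, was lower by a ratio of 22.7 with an interval from 7.45 to 113 (adjusted p = 0.000297), and its level is uncertain because reads could be split with its near copy Hs3st3a1. Hs3st1, known for the site that binds antithrombin, was the one member higher, with 93, 32 and 31 counts in rEEOs and 1 in rBMSCs, a ratio of 156 with an interval from 27.5 to 6186 (adjusted p = 0.000544), and was at least 16.1-fold higher without rBMSCs replicate 1, which held that count.

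**Figure D5:**
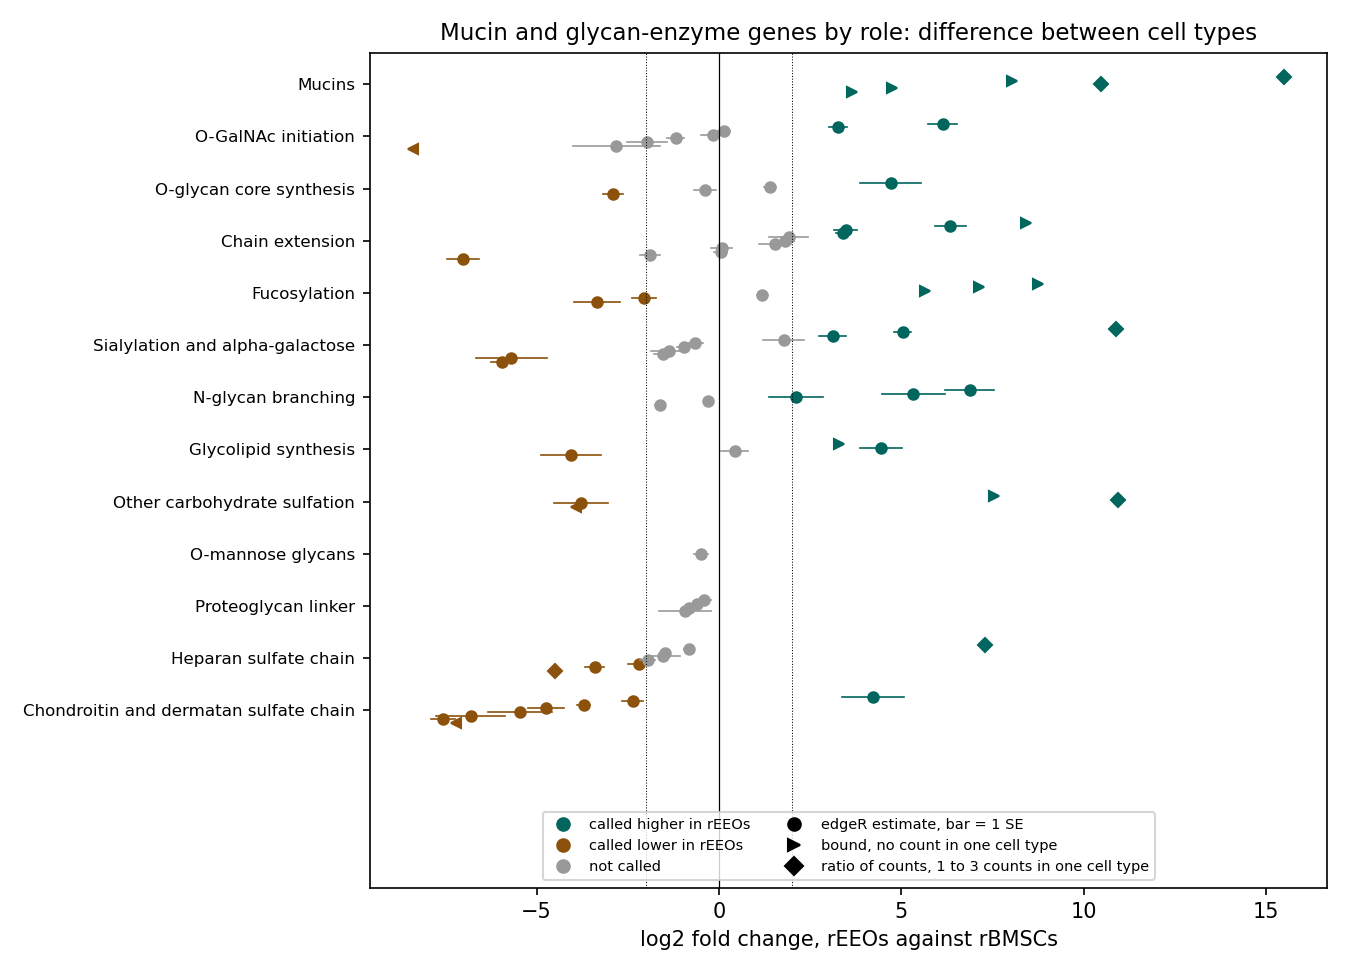
Log2 fold change of rEEOs against rBMSCs (x axis) for the 78 tested members, by role, with bars of 1 SE, green for called higher, brown for called lower and grey for not called. Arrowheads are bounds for genes without a count in one cell type, diamonds are ratios for genes with 1 to 3 counts there, and dotted lines mark the fold threshold. The 5 mucins lie right of the threshold, and 7 of 8 chondroitin and dermatan sulfate enzymes lie left of it.

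Across all roles, 11 members had no count in any rBMSCs library (Fut1, Fut2, Fut9, Gcnt3, Gal3st1, Muc3, Muc5b, Muc15, Muc20, Chst9 and B4galnt4), and 3 had none in any rEEOs library (Galnt16, Chst3 and Gal3st4). How many of all genes had no count in either cell type's libraries was not determined, so the 11 and 3 are a list and not a result about the members. The 3 counts taken as the floor correspond to between 0.181 and 0.262 CPM, so lower levels were not detectable at this depth. The 9 untested members, among them Galnt5, Galnt14, Galnt18, B3gnt8, Extl1, Chst1 and Chst10, had a mean of at most 2.32 TPM in either cell type.

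Other genes of these pathways were taken from lists of donors, carriers, core proteins and binding proteins, to be read beside 16.3% of all genes tested called higher and 13.3% called lower. Of 19 tested genes that make sugar nucleotides and the sulfate donor, 2 (10.5%) were called higher, Gnpnat1 of the N-acetylglucosamine route (2.54 ± 0.18) and the fucose kinase Fuk (2.19 ± 0.13), and 1 (5.26%) lower, the sulfate donor enzyme Papss2 (-2.39 ± 0.22), both shares below those of all genes. At any fold 11 of the 19 were higher and 2 lower, beside 33.3% and 30.2% of all genes tested. Of 11 Golgi transporters, Slc35b3, a carrier of the sulfate donor, was the only one called (3.23 ± 0.34), or 9.09%. Of 3 tested companions of mucus, 2 were called higher, Fcgbp, a protein of mucus gels (9.80 ± 0.79, 9.05 without rEEOs replicate 1, 134, 27.1 and 33.8 TPM against at most 0.13), and the secretory factor Creb3l4, with 2 counts in rBMSCs and a ratio of 105 (interval from 28.6 to 871). Creb3l1 did not pass the test (-0.10 ± 0.65, adjusted p = 0.902). The list named 13 genes, of which 7 were in the table. Those not tested had few counts in rEEOs, with 40, 2 and 10 for Spdef, 8, 0 and 5 for Clca1, 1, 0 and 2 for Tff3 and 0, 0 and 1 for Agr3.

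Of 17 tested proteoglycan core proteins, 13 (76.5%) were called lower and 2 (11.8%) higher in rEEOs. Among these, Acan, Vcan, Cspg4, Lum, Gpc5 and Prelp reached 10 counts in rBMSCs libraries only, and Gpc3 in rEEOs libraries only. The filter fixed their direction, so the calls of these genes are no support for a direction. Acan, the cartilage proteoglycan that carries chondroitin sulfate, was at 488, 435 and 507 TPM in rBMSCs and had 3 counts in rEEOs, and Vcan, also a chondroitin sulfate carrier, was at 57.9, 48.9 and 66.0 TPM and had 1 count. The 2 higher were the heparan sulfate carriers Agrn (63.9, 78.1 and 54.0 TPM against 4.37 to 5.82, 3.95 ± 0.27) and Gpc3 (1.28, 11.9 and 11.2 TPM against 1 count). Of 22 tested genes that trim or break down glycans, 6 (27.3%) were called higher and 2 (9.09%) lower. Hpse, the heparanase, was at 55.2, 49.3 and 44.2 TPM in rEEOs and had 1 count in rBMSCs, while Sulf1, which takes sulfate off heparan sulfate, had none in rEEOs and was at least 28.5-fold lower. Of 5 tested galectins and companions, which bind galactose ends, Lgals9 and Lgals3 (2.01 ± 0.23) were called higher and Lgals1 lower (-9.06 ± 0.67, 2.07, 3.89 and 10.3 TPM in rEEOs against 3646 to 4017). Lgals3 was short of the fold threshold at 1.97, 1.99 and 1.79 without rBMSCs replicate 1, rBMSCs replicate 3 and rEEOs replicate 3. Lgals1 was at -10.00 without rEEOs replicate 3. Creb3l4, Hpse and Lgals9 reached 10 counts in rEEOs libraries only and Sulf1 in rBMSCs libraries only, so the filter fixed their direction as well.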

How the data were processed

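RNA of 3 rEEOs and 3 rBMSCs samples was sequenced by the authors, who trimmed reads with Trim Galore, aligned them with Bowtie2 2.2.5 and estimated expression with RSEM; the submitters' processing notes name Rnor_6.0. The table deposited by the authors holds an expected count, a TPM and an FPKM per gene and library. Expected counts are not normalized and were rounded; TPM, scaled by the authors for length and depth, summed to between 81.3% and 82.7% of the full TPM scale over the genes held; the deposited FPKM gave only relative transcript lengths. Whether counting used strand is not given in the sources used here.

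The members and lists were chosen with earlier results of these data known. Members were found by symbol, and 86 of 87 matched RefSeq (GRCr8) by gene ID. Genes that reached 10 counts in 3 or more libraries were tested with edgeR 4.0.16 (TMM, glmQLFit, glmQLFTest; R 4.3.3), as 3 rEEOs against 3 rBMSCs, with Benjamini-Hochberg adjustment over 10607 genes. SE is the log2 fold change divided by the root of F. Named by a fixed rule were every mucin among the members, in each role up to 3 called members with the largest change each way and at least 1 TPM in the higher cell type, the 2 most abundant of each role, Fut4 and Fut9, and up to 2 called each way in the other lists. Galnt2, Galnt7, Galnt11, B4galt1, B4galt4, B3galt6, Xylt1, Chst12 and Chst15, and members listed for having no or few counts, were added after their values were seen. So were Creb3l1, Spdef, Clca1, Tff3 and Agr3 of the mucus list, Cspg4, Lum, Gpc5 and Prelp of the core proteins, and the member St6galnac2. Folds against a group without counts are bounds at 3 counts per library, and with 1 to 3 counts in a group the ratio has an exact interval (Clopper-Pearson, 95%). Replicates differed beyond sampling noise, with a chi-square per degree of freedom of 3.09 to 236, so each counted as 1 sample. Alternatives used DESeq2 1.42.0 and limma 3.58.1, other scalings, filters and thresholds, and fits without each library. The scripts were tested on simulated data.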

Additional observations from a re-analysis of the deposited data

How the results depend on the processing

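The counts of members called stayed within 1.5 times their main value under every alternative run, between 21 and 33 for higher and between 18 and 29 for lower calls past the fold threshold, and between 25 and 35 and between 25 and 39 at any fold. Higher calls past the fold threshold were between 25 and 28 and lower calls between 18 and 27 when any one library was left out, against 27 and 20, and at any fold between 28 and 34 were higher and between 29 and 39 lower, against 33 and 34. Lower calls numbered 27 without rEEOs replicate 1. Nothing in the labels says that a replicate number marks a shared culture or day. Correlations of deviations within a group were 0.17, 0.19 and -0.17 for same-numbered samples and between -0.29 and 0.26 for the others. With 3 libraries per group they cannot decide whether the numbers pair samples. With the replicate number as a block, 26 were called higher and 22 lower, and 33 and 34 at any fold. Scaling by library size alone moved the median of all genes by 0.38, and turned C1galt1 to 0.018 and Mgat2 to 0.074 on the log2 scale, neither past the test. The alternative with the length trend removed was chosen after seeing the data. Muc5b, Muc15, Muc20, Mgat4a, Gal3st1 and a few other low genes did not reach the stricter filters and have no value there. The 3 libraries per group and 10457958 to 15421501 counts per library limit what could be detected.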
